A study of Mus musculus with 7 samples.

Results

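The Rab GTPases were examined in myeloid cells from the spleens of mice with acute graft-versus-host disease, a disease in which donor T cells attack the tissues of the recipient. A gene was taken as a member where the array's annotation gives it the symbol Rab followed by a number, with or without a further letter, which gave 56 members among 19494 genes with a symbol. Their levels were compared between 4 mice given the ROCK1/2-inhibitor Y-27632 and 3 mice given its vehicle, PBS. ROCK1 and ROCK2 are kinases that act on actin and myosin. Both groups consisted of wild-type BALB/cAnN recipients that were irradiated with 2 doses of 5 Gy and transplanted with bone marrow and T cells from C57BL/6N donors (allo-HCT). Injections into the peritoneum, at 8 mg/kg in the inhibitor group, began 4 days after allo-HCT and continued for 10 days. The ages of the mice are not given in the labels, untransplanted mice are not among the samples, and the inhibitor reached the whole animal and not only the sorted cells. CD45+CD11b+ spleen cells were sorted on day 14 and hybridised to 1 Clariom S Mouse array per mouse. The mice are called R1 to R4 (inhibitor) and V2 to V4 (vehicle).

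Rab proteins are small GTPases that give each membrane compartment its identity. Bound to GTP, a Rab sits on a vesicle or organelle and recruits effectors that move, tether and fuse it, and hydrolysis of GTP returns it to the cytosol. Exchange factors load the GTP, GTPase-activating proteins trigger its hydrolysis, and a GDP dissociation inhibitor carries the inactive, prenylated protein between membranes. In neutrophils and monocytes, Rabs are known for the maturation of phagosomes, for traffic to lysosomes and for the release of granules.

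All values are log2 intensities, on which a difference of 1 is a 2-fold difference in intensity. Levels are given per mouse and are not compared between genes, since probes differ in brightness. Fold changes are inhibitor minus vehicle and were tested with limma across all 22139 transcript clusters, the array's gene-level probe groups, with Benjamini-Hochberg adjustment and a threshold of 0.05. In this fit, 234 transcript clusters (1.06%) rose with the inhibitor and 260 (1.17%) fell. These 494 calls dropped to 2 without R2, R4 or V2, to 4 without R3 and to 34 without V3, and were 1035 without R1. The groups were apart, meaning that all inhibitor mice lay above all vehicle mice or the reverse, for 1377 higher (6.22%) and 1557 lower transcript clusters (7.03%). The median log2 fold change of all transcript clusters was 0.00, and array medians lay between 2.14 and 2.19. The table has no detection call. A dim limit was therefore set at 1.96, the 95th percentile of the mean levels of 1414 olfactory and vomeronasal receptor rows. A member or machinery gene was taken as above it where its mean in either group reached it. By this rule 47 of the 56 members lay above it. The arrays give no counts, so the number of mice limits the precision.

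The sorted cells carried the markers of their gate. The mean level of Itgam and Ptprc, which encode CD11b and CD45, was 8.87 to 9.39 in inhibitor mice and 8.83 to 9.81 in vehicle mice. A label field of the samples describes CXCL12-abundant reticular cells instead, but 6 stromal reticular markers had mean levels of 2.02 to 2.18 in inhibitor mice and 1.85 to 2.04 in vehicle mice. The mean of 7 primary granule and early neutrophil markers was 5.26 to 6.47 in inhibitor mice and 6.90 to 7.38 in vehicle mice, and 4 of the 7 fell. The mean of 8 secondary granule markers was 10.2 to 10.4 in inhibitor mice and 10.7 to 11.0 in vehicle mice, and 3 of the 8 fell. Of 7 mature neutrophil markers 0 were called, at means of 9.56 to 9.90 in inhibitor mice and 9.45 to 10.1 in vehicle mice. Of 6 inflammatory monocyte markers 1 rose, at means of 7.09 to 7.90 in inhibitor mice and 6.59 to 7.44 in vehicle mice. Markers of T cells, B cells, NK cells, macrophages and dendritic cells had mean levels between 1.51 and 2.27 in every mouse. The mean of 6 basophil and mast cell markers was 5.96 to 7.20 in inhibitor mice and 6.55 to 7.01 in vehicle mice, and that of 4 eosinophil markers was 2.93 to 4.31 in inhibitor mice and 3.96 to 4.21 in vehicle mice, with 0 calls in either list. In both lists R2 was the lowest and R1 the highest of the inhibitor mice. In these bulk samples fewer cells of a type and less RNA per cell cannot be told apart, and the part of these marker levels in the Rab values below was not tested.

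Of the 56 Rab members, 1 rose with the inhibitor (Rab9, 1.79% of the members), 0 fell, and 55 did not pass the threshold, beside 1.06% and 1.17% of all transcript clusters in each direction. At an unadjusted limma p under 0.05 there were 7 members with higher and 8 with lower levels, 15 in all (26.8%), beside 15.3% of all transcript clusters. The groups were apart for 3 members that were higher under the inhibitor (5.36% of the members, beside 6.22% of all) and for 9 that were lower (16.1%, beside 7.03% of all). The higher members were Rab9, Rab10 and Rab14, and the lower members were Rab3d, Rab5b, Rab5c, Rab12, Rab19, Rab27b, Rab35, Rab40c and Rab43. These background shares come from a dimmer set. Above the dim limit lay 47 of the 56 members by their mean in either group. By their mean over all mice, a stricter rule, 11787 of 19494 genes with a symbol lay above it. Over all transcript clusters, groups were apart for 17.2% higher and 15.3% lower at a mean level of 5 or more. Under 5 these shares were 4.56% and 5.79%. The log2 fold change was above 0 for 22 members and below 0 for 34, while 50.9% of all transcript clusters were above 0. The members had a median of -0.08, quartiles of -0.27 and 0.15 and a range of -0.96 to 1.54. As a mean over the 56 members, inhibitor mice differed from the vehicle mean by -0.06 (R1), -0.03 (R2), -0.02 (R3) and -0.07 (R4), and vehicle mice by -0.14 (V2), 0.04 (V3) and 0.10 (V4). The family mean of each inhibitor mouse thus lay within the range of the vehicle mice.

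**Figure D1:**
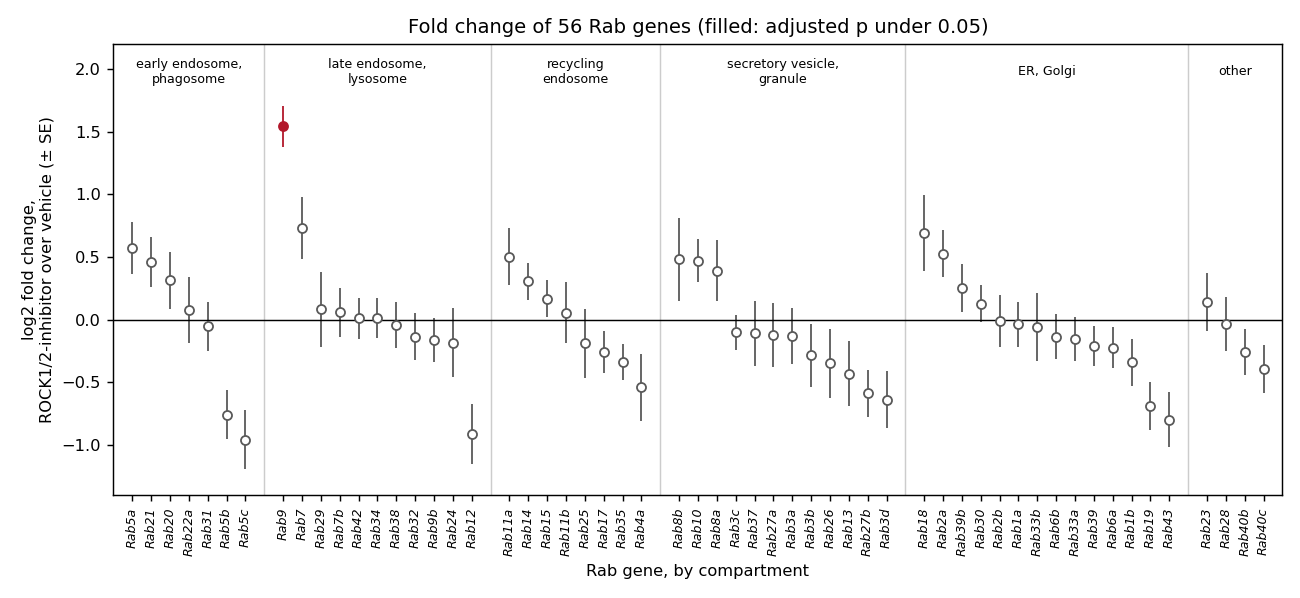
Log2 fold change (inhibitor minus vehicle, with its standard error) of the 56 Rab members, grouped by the compartment on which they are best known to act. Rab9, at 1.54, is the only member past the adjusted p threshold, and the estimates of the other 55 lie between -0.96 and 0.73.

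Rab9, which serves the return of mannose 6-phosphate receptors from late endosomes to the Golgi, was the only member that rose. Its level was 6.82, 7.02, 6.99 and 6.74 in inhibitor mice R1 to R4, against 5.25, 5.19 and 5.61 in vehicle mice V2 to V4. All 4 inhibitor mice lay above all 3 vehicle mice. The means were 6.89 ± 0.13 under the inhibitor (SD, n = 4) and 5.35 ± 0.23 under the vehicle (SD, n = 3), a log2 fold change of 1.54 with a standard error of 0.16, or 2.92-fold (adjusted p = 0.0164, limma). Rab9 ranked 5th of the 22139 transcript clusters by p and 72nd by fold change among the 234 that rose. With 1 mouse left out, the log2 fold change stayed between 1.46 and 1.68, but the adjusted p (limma) was 0.0531 without R2, 0.0552 without R3, 0.0505 without R4 and 0.0686 without V2. Across the 10 processing alternatives, the adjusted p (limma) lay between 0.00576 and 0.0187. Among them, the fit with a block on the replicate numbers takes nothing from R1 for its fold changes. The paralog Rab9b was at -0.16 on the log2 scale (adjusted p = 0.762, limma).

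**Figure D2:**
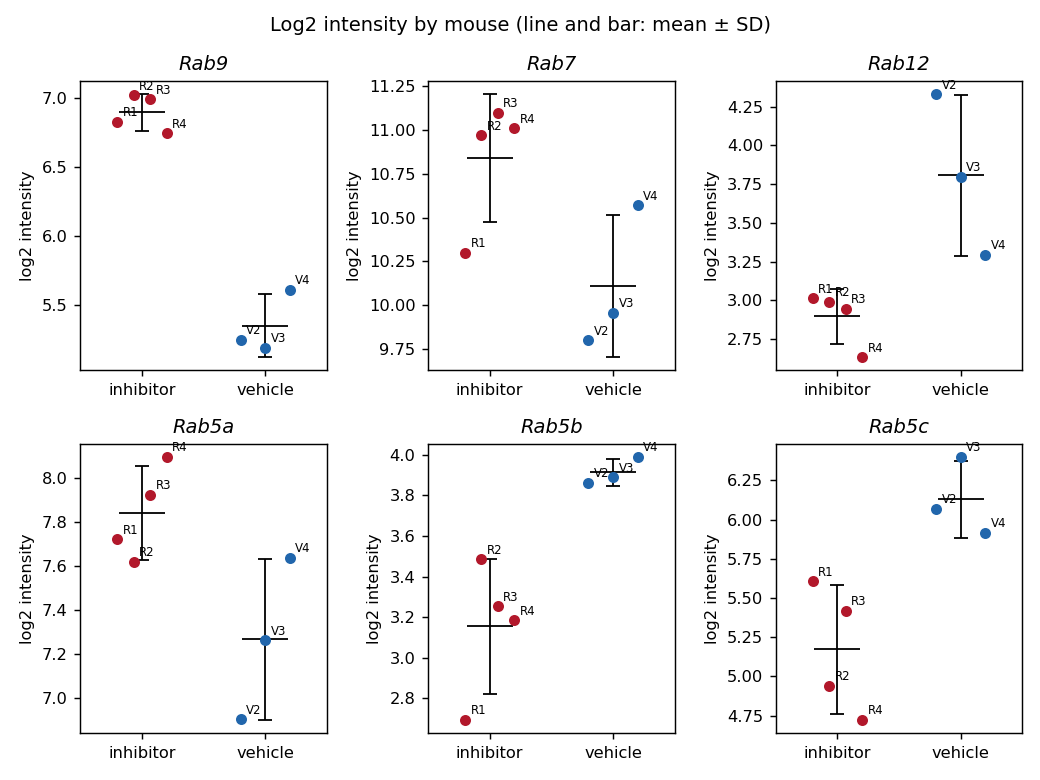
Log2 intensity of 6 Rab members in each mouse (points), with 4 inhibitor mice on the left of each panel and 3 vehicle mice on the right, and the mean ± SD of each group as a line and bar. Axes do not start at 0 and differ between panels. Rab9 separates the groups by more than 1 log2 unit between the lowest inhibitor mouse (6.74) and the highest vehicle mouse (5.61), and Rab5a lies in the opposite direction to Rab5b and Rab5c.

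Rab7, which drives the fusion of late endosomes and phagosomes with lysosomes, had levels of 10.3, 11.0, 11.1 and 11.0 in inhibitor mice and of 9.80, 9.96 and 10.6 in vehicle mice. The groups overlapped, because inhibitor mouse R1 lay below vehicle mouse V4, and the log2 fold change of 0.73 (standard error 0.25) was not called (adjusted p = 0.185, limma). Rab12, known for sending the transferrin receptor from recycling endosomes to lysosomes, had levels of 3.02, 2.99, 2.95 and 2.63 in inhibitor mice, against 4.33, 3.80 and 3.29 in vehicle mice. All inhibitor mice were lower, but the vehicle mice spanned a full log2 unit, and the log2 fold change of -0.91 (standard error 0.24) missed the threshold (adjusted p = 0.0844, limma). With each mouse left out in turn, the log2 fold change lay between -1.17 and -0.65 and the adjusted p (limma) between 0.0337 and 0.242. It passed the threshold only without V4, the vehicle mouse nearest to the inhibitor group (-1.17, adjusted p = 0.0337, limma). The other 8 members of the late endosome, lysosome and autophagosome class, which include Rab32 and Rab38 of lysosome-related organelles and Rab24 of autophagosomes, had log2 fold changes from -0.18 to 0.08. The median of all 11 was 0.01. Over these 11, the groups were apart for 1 member higher (9.09%, beside 6.22% of all transcript clusters) and for 1 lower (9.09%, beside 7.03%).

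The isoforms of Rab5, the GTPase of early endosomes and young phagosomes, had log2 fold changes of opposite sign. Rab5a had levels of 7.72, 7.62, 7.93 and 8.10 in inhibitor mice, against 6.91, 7.26 and 7.64 in vehicle mice, with a log2 fold change of 0.57 (95% interval 0.11 to 1.03, adjusted p = 0.208, limma). Rab5b had levels of 2.70, 3.49, 3.26 and 3.19 in inhibitor mice, against 3.86, 3.89 and 3.99 in vehicle mice, with a log2 fold change of -0.76 (95% interval -1.20 to -0.32, adjusted p = 0.0811, limma). Rab5c had levels of 5.61, 4.94, 5.42 and 4.72 in inhibitor mice, against 6.07, 6.40 and 5.92 in vehicle mice, with a log2 fold change of -0.96 (95% interval -1.49 to -0.43, adjusted p = 0.0714, limma). For Rab5b and Rab5c every inhibitor mouse lay below every vehicle mouse, and for Rab5a vehicle mouse V4 lay just above inhibitor mouse R2. Over the 7 early endosome members, the groups were apart for 2 lower (28.6%, beside 7.03% of all transcript clusters) and for 0 higher (beside 6.22%). None of the 3 isoforms was called. With each mouse left out in turn, Rab5c lay between -1.10 and -0.81, with an adjusted p (limma) between 0.0298 and 0.228. It passed the threshold only without R1 (-1.10, adjusted p = 0.0298, limma).

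The same contrast could be read within each mouse. Rab5a minus Rab5b was 5.03, 4.14, 4.67 and 4.91 in inhibitor mice, against 3.04, 3.38 and 3.65 in vehicle mice. Rab5a minus Rab5c was 2.12, 2.68, 2.51 and 3.37 in inhibitor mice, against 0.84, 0.87 and 1.72 in vehicle mice. In both cases the groups were apart. The average shifts of 1.33 and 1.53 follow directly from the isoform fold changes given above and are not separate support for them. Rab5b minus Rab5c overlapped between the groups, at -2.91, -1.45, -2.16 and -1.54 in inhibitor mice and at -2.21, -2.51 and -1.93 in vehicle mice. These differences were formed after the isoform values were seen and were not tested, and only their shift between groups has a meaning, not their size. The remaining early endosome members, Rab20, Rab21, Rab22a and Rab31, had log2 fold changes from -0.05 to 0.46, the highest for Rab21, a regulator of integrin traffic (adjusted p = 0.304, limma).

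The promoters of Rab9 and the 3 Rab5 isoforms are shown because these 4 genes carried the contrasts above. Each sequence is the 150 bases before the transcription start in RefSeq (GRCm38.p6), 5′ to 3′ on the strand of the gene, at chrX:166479868-166480017 (minus strand) for Rab9, chr17:53479084-53479233 (plus strand) for Rab5a, chr10:128696269-128696418 (minus strand) for Rab5b and chr11:100738216-100738365 (minus strand) for Rab5c. Capitals mark matches, on either strand, to TCACGTGA (the core of the CLEAR element of lysosomal genes), GGGCGG (GC box), CCAAT or TATAAA.
Rab9: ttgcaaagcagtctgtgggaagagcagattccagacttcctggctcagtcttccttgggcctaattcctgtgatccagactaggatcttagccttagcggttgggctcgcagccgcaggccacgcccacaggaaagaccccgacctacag
Rab5a: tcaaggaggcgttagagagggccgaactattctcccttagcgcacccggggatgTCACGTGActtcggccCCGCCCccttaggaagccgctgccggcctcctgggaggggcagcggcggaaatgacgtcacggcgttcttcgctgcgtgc
Rab5b: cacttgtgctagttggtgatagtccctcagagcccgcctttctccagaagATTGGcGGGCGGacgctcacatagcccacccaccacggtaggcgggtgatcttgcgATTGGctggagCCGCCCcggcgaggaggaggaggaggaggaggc
Rab5c: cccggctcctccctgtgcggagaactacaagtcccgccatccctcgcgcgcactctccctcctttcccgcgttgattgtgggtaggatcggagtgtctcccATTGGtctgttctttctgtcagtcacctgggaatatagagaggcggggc

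In these windows Rab5a had the CLEAR core, starting 96 bases before the start, and 1 GC box. Rab5b had 2 GC boxes and 2 CCAAT boxes, Rab5c had 1 CCAAT box, and Rab9 had no match to any of the 4 motifs. A promoter table entry (250 bases before to 50 after the start) was found for 47 of the 56 members. Among these genes the CLEAR core occurred in 3 (Rab5a, Rab21 and Rab24, 6.38%), beside 1.13% of 27025 genes with a promoter entry. Their log2 fold changes were 0.57, 0.46 and -0.18, and none was called. GC boxes occurred in 35 of 47 members (74.5%, beside 38.2% of all genes), CCAAT boxes in 25 (53.2%, beside 41.1%) and TATA boxes in 4 (8.51%, beside 15.7%). These motifs were chosen after the values were seen, and a match describes letters only.

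**Figure D3:**
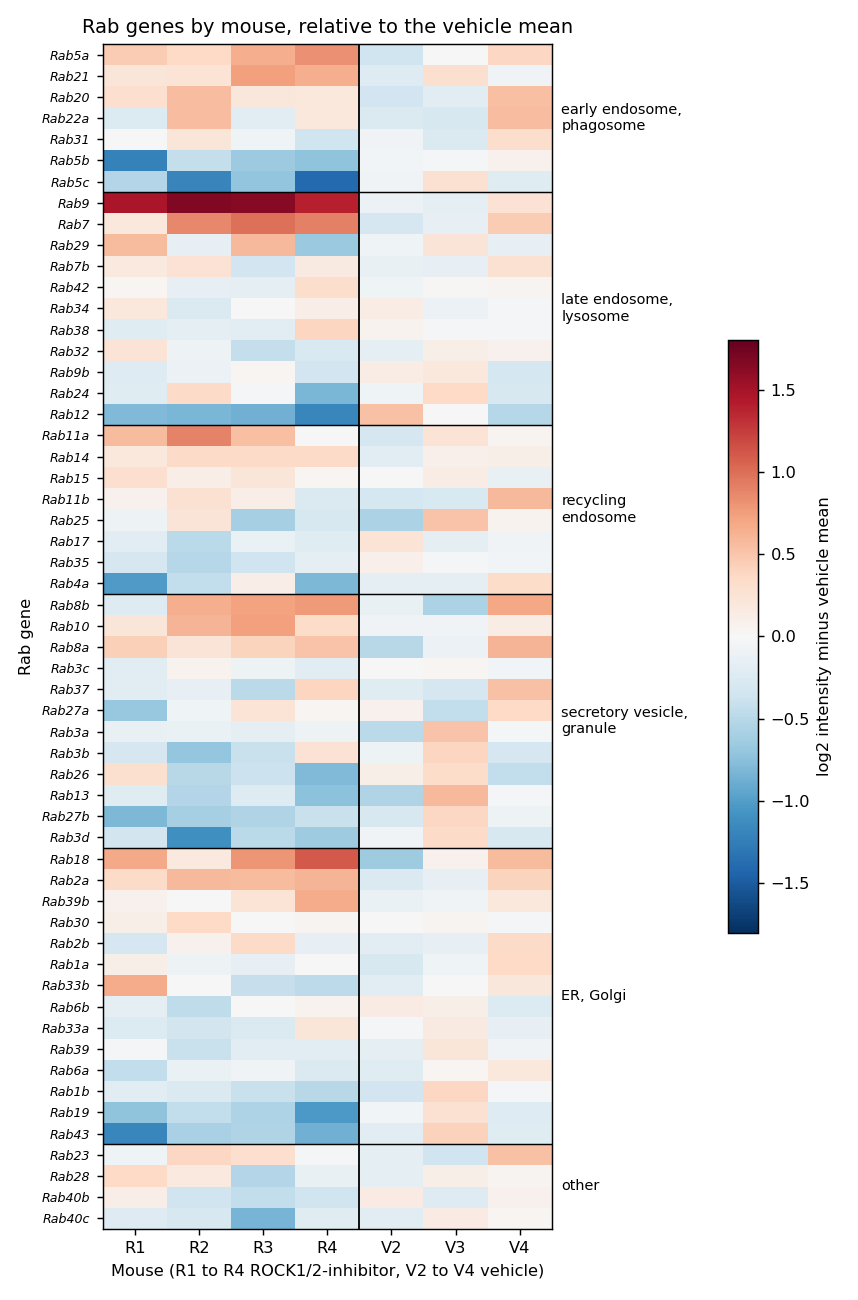
Log2 intensity of each Rab member in each mouse minus the vehicle mean of that member, with inhibitor mice in the left columns and vehicle mice in the right columns. Rab9 has the highest difference of the 56 rows in each of the 4 inhibitor mice, between 1.39 and 1.67. Rab5b, Rab5c, Rab12, Rab43 and Rab19, with the lowest fold changes, lie below 0 in all 4. So do other members, among them Rab3d, Rab27b and Rab35.

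Among the 8 members of recycling endosomes, 0 were called and the median log2 fold change was -0.07. Rab35, which acts in rapid recycling at the plasma membrane, had levels of 3.82, 3.61, 3.77 and 3.97 in inhibitor mice, against 4.22, 4.09 and 4.08 in vehicle mice. All inhibitor mice were lower, with a log2 fold change of -0.34 (adjusted p = 0.313, limma). Rab14, which links endosomes and the Golgi, had levels of 6.89, 7.05, 7.04 and 7.05 in inhibitor mice, against 6.49, 6.79 and 6.81 in vehicle mice. Here the inhibitor mice were all higher, by 0.31 on average (adjusted p = 0.375, limma). Rab11a, the GTPase of slow recycling, overlapped between the groups at 6.55, 6.87, 6.53 and 5.99 in inhibitor mice and 5.68, 6.23 and 6.04 in vehicle mice (log2 fold change 0.50, adjusted p = 0.340, limma). The other 5 members lay between -0.54 (Rab4a, of fast recycling) and 0.17. Over the class, the groups were apart for 1 member higher (12.5%, beside 6.22% of all transcript clusters) and for 1 lower (12.5%, beside 7.03%).

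Among the 12 members of secretory vesicles and granules, 0 were called and the median log2 fold change was -0.13. It was above 0 for 3 members and below 0 for 9, while 50.9% of all transcript clusters were above 0. Rab27a, which docks granules in neutrophils, had levels of 7.25, 7.85, 8.18 and 7.97 in inhibitor mice and 8.01, 7.50 and 8.29 in vehicle mice. The groups overlapped, and the 95% interval of its log2 fold change of -0.12 ran from -0.70 to 0.46 (adjusted p = 0.897, limma). Its paralog Rab27b was near the dim limit, at 1.72, 1.94, 2.00 and 2.13 in inhibitor mice, against 2.25, 2.91 and 2.44 in vehicle mice. Its mean lay under the limit in inhibitor mice (1.95) and above it only in vehicle mice (2.53). All inhibitor mice were lower (log2 fold change -0.59, adjusted p = 0.161, limma). Rab3d, a GTPase of secretory granules, had levels of 4.70, 3.92, 4.54 and 4.39 in inhibitor mice, against 4.96, 5.38 and 4.74 in vehicle mice. No inhibitor mouse reached the vehicle mice, though R1 came close to V4, with a log2 fold change of -0.64 (adjusted p = 0.202, limma).

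Rab10, which carries vesicles to the plasma membrane, was the member of this class with all inhibitor mice above all vehicle mice, at 5.20, 5.59, 5.71 and 5.31 in inhibitor mice and 4.91, 4.91 and 5.12 in vehicle mice (log2 fold change 0.47, adjusted p = 0.211, limma). The related Rab8a and Rab8b, which also serve traffic to the plasma membrane, overlapped between the groups, with log2 fold changes of 0.39 and 0.48. Over the class, the groups were apart for 1 member higher (8.33%, beside 6.22% of all transcript clusters) and for 2 lower (Rab3d and Rab27b, 16.7%, beside 7.03%). As a mean over the 12 members, inhibitor mice differed from the vehicle mean by -0.18 (R1), -0.19 (R2), -0.06 (R3) and -0.05 (R4). Vehicle mice differed from it by -0.18 (V2), 0.09 (V3) and 0.09 (V4), so the class means of the groups overlapped. The means of the neutrophil granule markers given above were lower in inhibitor mice, and their part in these Rab values was not tested.

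Among the 14 members of the endoplasmic reticulum (ER) and Golgi, 0 were called and the median log2 fold change was -0.10. It was above 0 for 4 members and below 0 for 10, while 50.9% of all transcript clusters were above 0. Rab43, a Golgi-associated Rab, had levels of 1.69, 2.28, 2.32 and 1.99 in inhibitor mice, against 2.68, 3.27 and 2.65 in vehicle mice. Rab19, also placed at the Golgi, had levels of 2.32, 2.60, 2.49 and 2.01 in inhibitor mice, against 3.00, 3.32 and 2.81 in vehicle mice. All inhibitor mice were lower for both genes, and the log2 fold changes of -0.80 and -0.69 missed the threshold (adjusted p = 0.101 and 0.105, limma). Over the class, the groups were apart for 2 members lower (14.3%, beside 7.03% of all transcript clusters) and for 0 higher (beside 6.22%). Rab2a, which acts between the ER and Golgi, had levels of 8.77, 9.01, 8.99 and 9.04 in inhibitor mice, against 8.17, 8.27 and 8.83 in vehicle mice. Vehicle mouse V4 lay among the inhibitor mice, and the log2 fold change of 0.53 was not called (adjusted p = 0.206, limma). The other 11 lay between -0.34 and 0.69, the highest being Rab18, a GTPase of the ER and lipid droplets (adjusted p = 0.315, limma), and Rab1a, of ER-to-Golgi transport, was at -0.04.

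Of the 4 members with another or less defined site, 0 were called. Rab40c and Rab40b carry a motif that binds ubiquitin ligase components. Rab40c had levels of 2.36, 2.31, 1.77 and 2.39 in inhibitor mice, against 2.41, 2.75 and 2.64 in vehicle mice (log2 fold change -0.39, adjusted p = 0.387, limma). Inhibitor mice were lower without overlap, though R4 and V2 differed little. Rab40b overlapped between the groups, at 3.12, 2.64, 2.56 and 2.65 in inhibitor mice and 3.16, 2.77 and 3.08 in vehicle mice (log2 fold change -0.26, adjusted p = 0.606, limma). Rab23, a regulator of Hedgehog signalling in mice, overlapped too, at 2.23, 2.68, 2.61 and 2.28 in inhibitor mice and 2.14, 1.95 and 2.83 in vehicle mice (log2 fold change 0.14, adjusted p = 0.859, limma). Rab28 was at -0.03. The 9 members under the dim limit were Rab2b, Rab3c, Rab6b, Rab30, Rab33a, Rab34, Rab38, Rab39 and Rab42, with log2 fold changes from -0.21 to 0.13.

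The members were also counted by brightness. Of the 20 members with a mean level of 5 or more, 12 (60.0%) had a log2 fold change above 0 and the median was 0.35, beside a median of 0.09 over the 2900 transcript clusters in this range, of which 55.2% were above 0. Non-overlapping groups were seen for 3 of them higher and 1 lower, beside 17.2% and 15.3% of those transcript clusters. Of the 36 members with a mean level under 5, 10 (27.8%) had a log2 fold change above 0 and the median was -0.16, beside a median of 0.00 over 19239 transcript clusters, of which 50.2% were above 0. Non-overlapping groups were seen for 0 of these higher and 8 lower (22.2%), beside 4.56% and 5.79% of the transcript clusters in the range. After cyclic loess normalization, which removes brightness-dependent shifts between arrays, the medians of the members were 0.24 and -0.16, beside 0.02 and 0.00 over all transcript clusters in each range. Above 0 were then 11 of the 20 and 10 of the 36 members, beside 1480 of 2900 and 9722 of 19239 transcript clusters. The boundary of 5 was chosen after the values were seen, and the difference between bright and dim members was not tested.

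**Figure D4:**
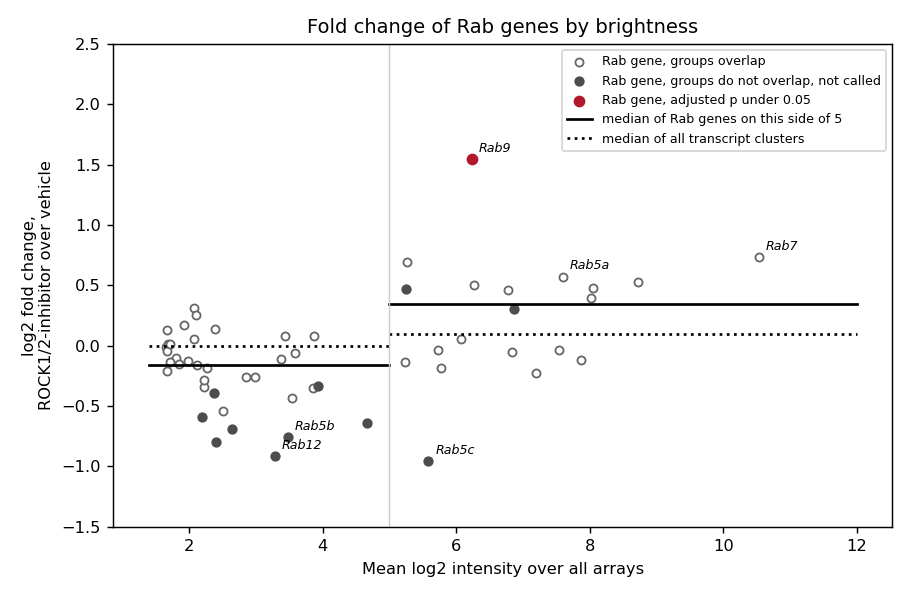
Log2 fold change (inhibitor minus vehicle) of the Rab members against their mean log2 intensity over the 7 mice, with filled points where the groups do not overlap (red for Rab9, the called member). Lines give the medians of the members (solid) and of all transcript clusters (dotted) on each side of 5, and members with a mean level of 5 or more have a median of 0.35, and those under 5 have a median of -0.16.

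The proteins that load, unload, carry or act with Rabs were read from 9 lists with 161 genes, of which 145 were measured. In these lists 1 gene rose (0.690%, beside 1.06% of all transcript clusters) and 6 fell (4.14%, beside 1.17%), 138 were not called, and the median log2 fold change was -0.05. Above the dim limit, by the mean in either group, lay 125 of the 145, so the shares over all transcript clusters again come from a dimmer set. Of 36 exchange factors, 2 fell (5.56%, beside the same 1.17%). Rinl, an exchange factor for Rab5, had levels of 4.30, 4.26, 3.81 and 4.71 in inhibitor mice, against 5.84, 5.60 and 5.82 in vehicle mice (log2 fold change -1.48, standard error 0.21, adjusted p = 0.0187, limma). Gapvd1, which also activates Rab5, had levels of 4.65, 4.87, 4.77 and 4.51 in inhibitor mice, against 6.12, 5.66 and 5.63 in vehicle mice (log2 fold change -1.10, adjusted p = 0.0227, limma). For both genes every inhibitor mouse lay below every vehicle mouse. The next by p were Dennd4a (1.43, adjusted p = 0.0644), Dennd6a (0.75, 0.0851) and Rgp1 (-0.75, 0.161), none of which was called.

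Of 33 GTPase-activating proteins, 1 fell (3.03%, beside 1.17% of all transcript clusters) and the median was -0.14. Tbc1d20, which turns off Rab1, had levels of 4.42, 3.01, 2.92 and 3.71 in inhibitor mice, against 5.50, 5.52 and 4.80 in vehicle mice (log2 fold change -1.76, adjusted p = 0.0441, limma). There was no overlap although the inhibitor mice spread over more than 1 log2 unit. Tbc1d9b, Tbc1d10c and Tbc1d2b, of the same domain family, had log2 fold changes of -1.10, -1.14 and -1.21 and missed the threshold (adjusted p = 0.0636, 0.0863 and 0.0889, limma). Of the 6 prenylation and recycling factors 0 were called, with Chm (Rab escort protein 1) at 0.89, Gdi2 (a GDP dissociation inhibitor) at 0.63 and Rabif at -0.07.

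In the lists of effectors and of proteins that act with them, 3 genes fell, all in the recycling and secretory lists. Ehd1, an ATPase that shapes recycling tubules, had levels of 4.43, 4.35, 4.11 and 4.16 in inhibitor mice, against 6.14, 5.50 and 5.37 in vehicle mice (log2 fold change -1.41, adjusted p = 0.0193, limma). Mical1, an actin-oxidising enzyme that binds several Rabs, had levels of 2.53, 2.22, 1.97 and 2.31 in inhibitor mice, against 4.36, 4.19 and 3.37 in vehicle mice (log2 fold change -1.72, adjusted p = 0.0189, limma). Stxbp2 (Munc18-2), a partner of syntaxins in granule release, had levels of 6.81, 7.12, 7.06 and 6.41 in inhibitor mice, against 7.65, 7.79 and 7.81 in vehicle mice (log2 fold change -0.90, adjusted p = 0.0486, limma). Inhibitor mice lay below vehicle mice without overlap for all 3 genes.

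Ehd1 was the only call among the 13 genes of the recycling list (7.69% lower, beside 1.17% of all transcript clusters), in which Myo5a, Rabepk and Ehd4 were next (0.97, -0.37 and -0.61). Mical1 and Stxbp2 were the calls among the 20 genes of the secretory list (10.0% lower, beside 1.17%), in which Exoc6, Unc13d and Rims2 were next (0.69, -0.59 and -0.69). Of the 11 early endosome effectors 0 were called and the median was 0.20, with Appl1, an adaptor on Rab5 endosomes, at 1.12, Rabep1 at 0.70 and Vps8 at 0.35. Of the 16 late endosome effectors 0 were called and the median was -0.12, with Vps41, Vps26a and Vps39 at 0.73, 0.58 and -0.49. Of the 7 Rab-like and large Rab GTPases 0 were called, with Rabl2, Rasef and Cracr2a at 0.32, 0.26 and -0.24.

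Lrrk2, a kinase that phosphorylates Rab8a, Rab10 and other Rabs, was the machinery gene that rose. Its levels were 6.37, 7.47, 7.46 and 7.56 in inhibitor mice, against 5.77, 5.39 and 6.08 in vehicle mice (log2 fold change 1.47, standard error 0.30, adjusted p = 0.0448, limma). Inhibitor mouse R1 lay near the vehicle mice, and the other 3 were more than 1 log2 unit above them. Its paralog Lrrk1 was at -0.52 and the kinase Tbk1 at 0.41, and neither was called (adjusted p = 0.0814 and 0.398, limma). All 7 called machinery genes kept their direction with any 1 mouse left out. The number of the 7 that passed was 6 without R1, 5 without V4, and 0 without R2, R3, R4, V2 or V3, where the adjusted p (limma) lay between 0.0505 and 0.162.

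**Figure D5:**
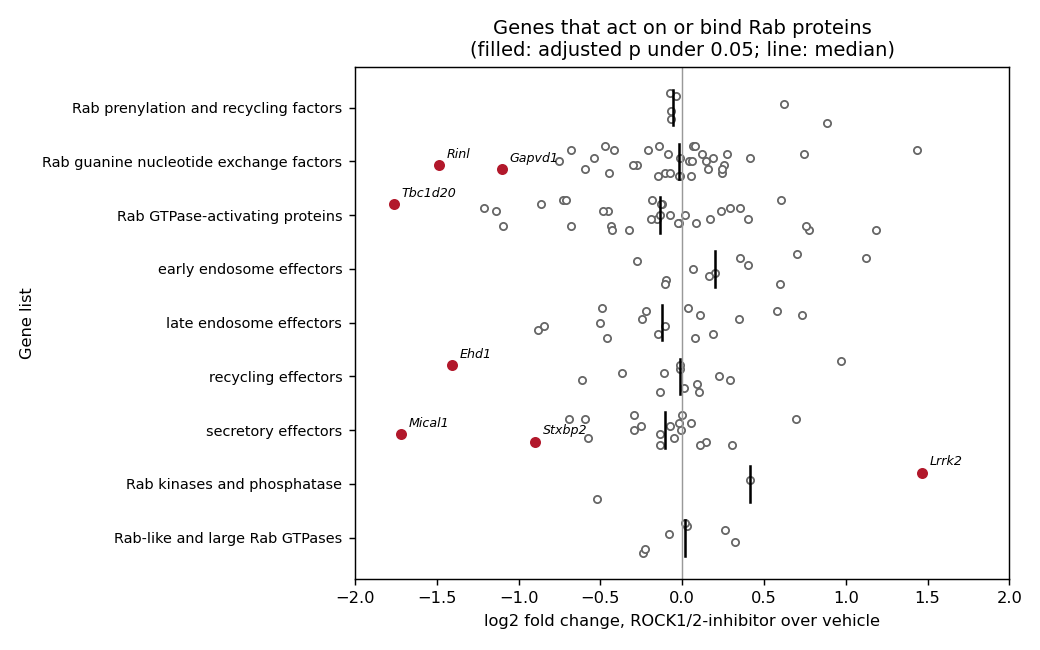
Log2 fold change (inhibitor minus vehicle) of the 145 measured genes that load, unload, carry or act with Rabs, in 9 lists, with called genes filled and named and the median of each list as a vertical line. Lrrk2 rose by 1.47, and the 6 genes that fell lie between -0.90 and -1.76.

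Other small GTPases were read in the same fit. Of 27 Ras family genes 1 rose (3.70%, beside 1.06% of all transcript clusters), Rap1a (1.37, adjusted p = 0.0189, limma), and the median was 0.10. Of 16 Arf and Arl genes 0 were called and the median was -0.01. Whether these families differ from the Rabs was not tested.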

How the data were processed

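RNA of sorted CD45+CD11b+ spleen cells was measured on 7 Clariom S Mouse arrays, 4 from ROCK inhibitor mice and 3 from vehicle mice, and grouped by the sample labels. The values deposited by the authors are log2 intensities per transcript cluster, made by Robust Multi-Array Average (RMA). Both oligo and RMA stand in the submitters' processing notes with no version, and a genome build for the array is not given in the sources used. Background correction and quantile normalization therefore stay as deposited, and shifts common to all genes of an array cannot be seen. Labels and methods name different RNA kits.

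Of 22203 rows, 22139 transcript clusters were tested and 64 other rows entered 1 alternative. Symbols came from the platform annotation. All 56 Rab members matched a RefSeq gene table by Entrez ID with the symbol unchanged, and each had 1 row. Rab genes without a named row were not analysed here. Paralogs may share probes, and protein identities were not analysed here.

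Testing used limma 3.58.1 (R 4.3.3, default lmFit and eBayes, no covariates, two-sided), as named in the study's methods, with Benjamini-Hochberg adjustment over all transcript clusters and a threshold of 0.05. The fit was also run on simulated arrays with known changes in some rows. Rows there varied independently of each other, so that run checks the working of the fit only, not the calls made here. Separate mice were the replicates. Python 3.11.15 with pandas 2.3.3 and matplotlib 3.10.9 served for tables and plots. Per-mouse values are given for called members and for the 3 members of each compartment class with the smallest p above the dim limit, and for Rab27a, which was added with its values known. Of each machinery list, called genes and up to 3 others by p are named. A list of other small GTPases is not reported here. Members, lists and compartment classes were chosen with earlier results of these data known. Alternatives were trended and robust variance, array weights, quantile, median and cyclic loess normalization, leaving out the lowest 25% of rows, all rows, rows with 1 symbol, the mean of the rows of a symbol, a replicate block, and each mouse left out. The brightness split, the motif search and the Rab5 within-mouse differences were added after the data were seen.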

Additional observations from a re-analysis of the deposited data

Results flagged for a closer look

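A mouse far from the other 3 inhibitor mice was looked for in 32 items, by the gap to its nearest neighbour as a share of the range of the group. A share above Dixon's 95% critical value for 4 samples was taken as far, which chance gives for about 1 in 20 groups, and groups of 3 vehicle mice were not examined. Mouse R1 was the low one for Rab7 (0.838), Rab14 (0.938) and Lrrk2 (0.923) and the high one for Rab40b (0.838). Mouse R3 was the low one for Rab40c (0.881), and mouse R4 was the low one for the mean over the late endosome, lysosome and autophagosome class (0.870). Of these, Lrrk2 was called, and its adjusted p without R1 was 0.00743 (limma). No explanation was tested.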

How the results depend on the processing

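With 4 against 3 arrays, calls depended on single mice. Over the 10 processing alternatives, Rab9 was the 1 Rab member called higher each time. With 1 mouse left out, 0 to 1 members were called higher, and Rab9 missed the threshold without R2, R3, R4 or V2. The count called lower was 0 except for 1 member with the replicate block (Rab5c) and 0 to 1 with 1 mouse left out (Rab5c without R1, Rab12 without V4). The replicate block and the fit without R1 give the same fold changes, so their Rab5c calls are not separate support. Over all transcript clusters, 494 were called, 410 to 964 over the processing alternatives and 2 to 1035 with 1 mouse left out, with the fewest without R2, R4 or V2 (2 each), then R3 (4) and V3 (34), and the most without R1. The median log2 fold change of the members was -0.12 to -0.07 over the processing alternatives and -0.10 to 0.00 with 1 mouse left out. Of 306 refits of the 18 named members, 298 kept direction and side of the threshold, 4 lost the call (Rab9), 3 gained it and 1 reversed (Rab23 without V3, -0.038, adjusted p = 0.982, limma). Of the 7 called machinery genes, Stxbp2 missed the threshold under trended and robust variance, median centring, rows with 1 symbol and the replicate block (adjusted p = 0.0745, 0.0574, 0.0505 and 0.0796, limma) and Lrrk2 under cyclic loess normalization (0.0504). Rab23 ranged from -0.038 to 0.41 with 1 mouse left out.

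Apart from that of R1, replicate numbers are shared by the groups. Deviations of same-numbered mice correlated at 0.0962, -0.128 and -0.0316 over transcript clusters, and not every mouse correlated best with its own number. These weak correlations do not settle whether the numbers pair the mice, and the main fit treats the mice as unpaired. With the replicate block, 964 transcript clusters were called in place of 494, and Rab5c reached -1.10 (adjusted p = 0.0215, limma). No vehicle mouse shares the number of R1, so R1 does not enter the fold changes of this fit. Without R1 and without a block, Rab5c was also at -1.10, and 1035 transcript clusters were called. The block fit therefore cannot separate a pairing of the mice from the loss of R1. Members near the dim limit carry little signal over background, so small differences among them could not be resolved.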
